A study of Mus musculus with 2 samples.

Results

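The transcripts followed here encode the subunits of the 5 oxidative phosphorylation complexes, measured by single-cell RNA sequencing in endothelium sorted from dorsal aortae of E10.5 mouse embryos. Members were chosen by gene name: Nduf for complex I, Sdh for complex II, Uqcr and Cyc1 for complex III, Cox for complex IV, Atp5 for complex V, and the protein-coding genes of the mitochondrial genome. Of 27514 genes in the count matrix, 97 matched these names, and 93 of them had at least 50 UMIs (unique molecular identifiers, each marking 1 captured RNA molecule) over all cells. The 93 comprised 80 nuclear genes and 13 mitochondrial genes. By complex, the nuclear members numbered 36 in complex I, 4 in complex II, 9 in complex III, 15 in complex IV and 16 in complex V, and the mitochondrial genome added 7, 0, 1, 3 and 2. The 4 members below the minimum were isoforms of complex IV, namely Cox7b2 with 8 UMIs, Cox6a2 with 7, and Cox8b and Cox8c with 0, whereas the sparsest member kept was Cox7a1 with 105 UMIs. Ndufa4 was counted with complex IV, where its protein resides.

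The series held 2 libraries, 1 from wild-type embryos and 1 from SP3-null embryos, both from matings of Sp3+/- parents of the strain C57Bl6/J x B6129SF1/J. Sp3 encodes a zinc finger transcription factor that binds GC-rich promoter elements, and the null allele was constitutive, so that blood and surrounding tissue of those embryos carried it as well. Embryos were pooled by genotype before sorting for CD31, CD144 and ESAM without Ter119 and with little or no CD41, and the number of embryos in each pool is not given in the sources used here. With 1 library per genotype no difference had a replicate check, no p-value was computed, and the 95% intervals cover counting error alone. Genotype cannot be told apart from library preparation or from the chromosomal segment around Sp3 that travels with the null allele.

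The wild-type library held 4451 cells with a median of 14664 UMIs per cell, and the SP3-null library 3954 cells with a median of 15638. The cells carried the authors' class labels from a reference map of the endothelial-to-hematopoietic transition: Wnt-high and Wnt-low arterial endothelium (AE), the same pair for venous endothelium (VE), conflux AE, the pre-hemogenic endothelium (pre-HE) that follows it, hemogenic endothelium (HE), intra-aortic clusters (IAC) of blood-forming cells, and other endothelium. The IAC held 128 wild-type and 107 SP3-null cells, and the HE 59 and 40. The endothelial markers Cdh5, Pecam1, Kdr, Esam, Tek, Tie1 and Cldn5 summed to 2764 to 3356 CPM (counts per 1000000 UMIs of the class) in the 2 AE classes and to 444 and 449 CPM in the IAC, which in turn held 947 and 990 CPM of 8 hemogenic and blood cell markers, against at most 50.5 CPM outside IAC and HE. Counts of Sp3 itself did not vanish in the library labelled SP3-null. They were 35.6 CPM there and 46.3 CPM in wild-type over 6 endothelial classes, a log2 ratio of -0.38 (95% interval -0.48 to -0.28), and were lower in all 9 classes. The sources used here do not say whether the counted 3' end lies outside the disrupted part of the gene, so that this count does not settle the label. The libraries shared 5 cell barcodes.

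In oxidative phosphorylation, complexes I and II take electrons from NADH and succinate, complex III passes them to cytochrome c, and complex IV hands them to oxygen. Complexes I, III and IV pump protons across the inner mitochondrial membrane as they do so, and complex V, the ATP synthase, uses the return flow to make ATP. Each complex except complex II mixes subunits made in the cytosol from nuclear genes with subunits made inside the mitochondrion from its own genome, so that 2 separately transcribed sets of RNA have to be matched. Blood stem cells are known for relying more on glycolysis than many of their descendants, and mitochondrial activity is one of the properties by which such cells have been sorted.

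The summed level of the 80 nuclear members varied little between classes. In the wild-type library it lay between 23588 CPM in pre-HE and 28367 CPM in Wnt-low VE, and in the SP3-null library between 22915 CPM and 28736 CPM in the same classes. The 13 mitochondrial genes covered a wider range. Their wild-type sums were 68586 CPM (Wnt-high AE), 77086 CPM (conflux AE), 75089 CPM (pre-HE), 52910 CPM (HE) and 45773 CPM (IAC). The matching SP3-null sums were 65855, 81386, 85620, 45139 and 44185 CPM. Both libraries therefore had their highest mitochondrial CPM in conflux AE or pre-HE and their lowest in the IAC. These values are shares of UMIs and not amounts of RNA per cell. The summed mitochondrial over the summed nuclear level went from 3.18 in wild-type pre-HE to 1.78 in wild-type IAC, and from 3.74 to 1.70 in the SP3-null library.

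**Figure D1:**
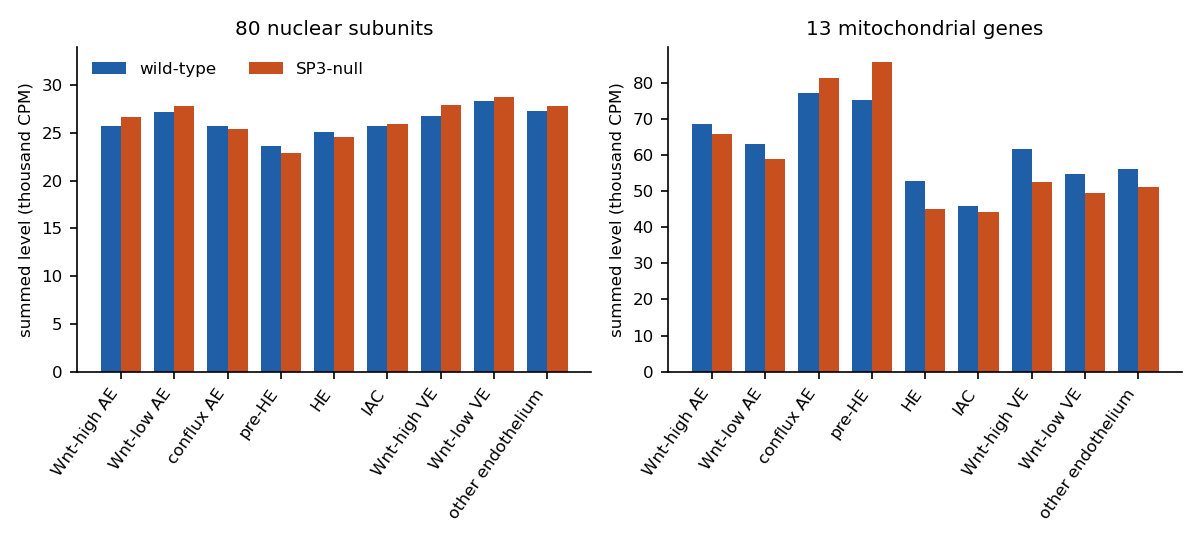
Summed level of the nuclear and of the mitochondrial members in units of 1000 CPM (vertical axes, from 0), by class (horizontal axis), with 1 bar per library. The nuclear bars are close to level across the 9 classes, whereas the mitochondrial bars are tallest in conflux AE and pre-HE and shortest in the IAC, at 45773 CPM (wild-type) and 44185 CPM (SP3-null).

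Individual members followed the same division. For the median nuclear member the highest class exceeded the lowest by 1.36-fold in the wild-type and 1.41-fold in the SP3-null library, with quartiles of 1.27 to 1.55 and 1.33 to 1.58. The lowest class was pre-HE for 36 of the 80 nuclear members in wild-type and for 41 in SP3-null, and the highest was most often Wnt-low VE (27 and 21 members) or the IAC (20 and 21). For the median mitochondrial gene the span was 1.77-fold in wild-type and 1.94-fold in SP3-null. In the wild-type library 9 of the 13 were highest in conflux AE and 3 in pre-HE, in the SP3-null library 12 were highest in pre-HE, and the IAC were the lowest class for 10 and 7.

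Sequencing depth of the cells moved with the mitochondrial level. Median UMIs per cell were 9249 and 8850 in conflux AE, 9258 and 9163 in pre-HE, 13225 to 14172 in the AE classes and 31009 and 30343 in the IAC. Across the 9 classes the mitochondrial level and the median depth had a Spearman rho of -0.93 in the wild-type and -0.92 in the SP3-null library, given as a description over 9 points that share 1 library each. Within a class the same relation appeared. Cells with fewer than 5000 UMIs had a median mitochondrial share between 15.1% and 25.5% depending on class and library, those from 5000 to under 10000 between 7.68% and 15.1%, those from 10000 to under 20000 between 4.49% and 6.44%, and those with 20000 or more between 3.76% and 5.73%. The median nuclear share in the same bins lay between 1.74% and 3.39%. It was taken of the UMIs outside the mitochondrial genes, whereas the mitochondrial share was taken of all UMIs, so the 2 are not like measures. Comparisons of mitochondrial genes between classes are therefore given below also for deeper cells and for cells thinned to 1 depth. Thinning gives the kept cells equal weight but leaves the expected mitochondrial share of each cell unchanged. It therefore cannot remove the relation of that share to depth. Thinning to 5000 UMIs kept only cells with at least that many and so left out the bin with the highest mitochondrial shares. In wild-type it kept 388 of 467 cells in Wnt-high AE, 140 of 188 in conflux AE, 102 of 136 in pre-HE and 126 of 128 in IAC.

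**Figure D2:**
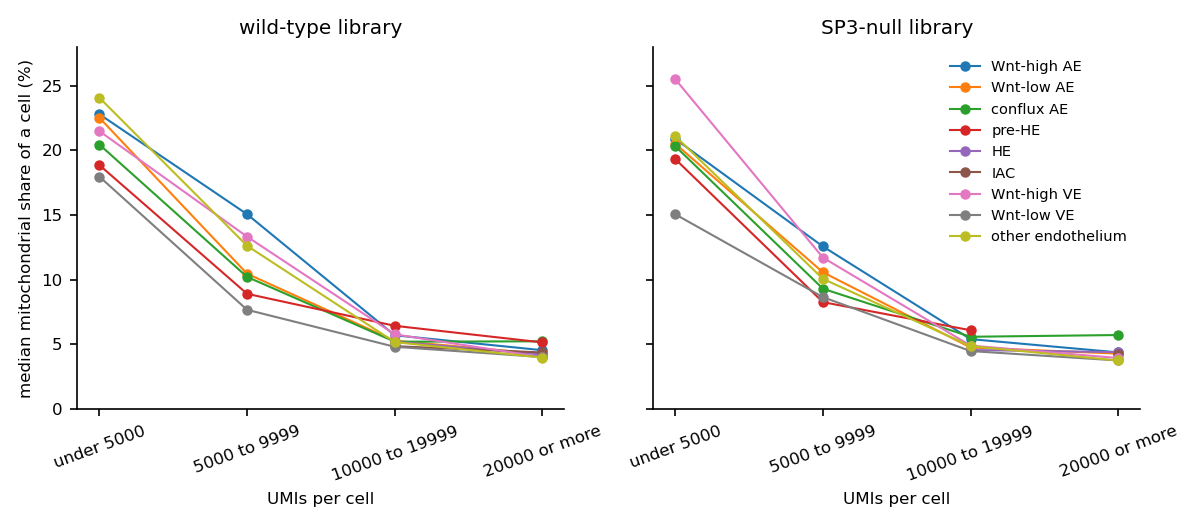
Median percentage of a cell's UMIs that came from the mitochondrial genome (vertical axis), for cells binned by their UMIs (horizontal axis), with 1 line per class and 1 panel per library. The lines descend from 15.1% to 25.5% in the shallowest bin to 3.76% to 5.73% in the deepest in both libraries. HE and IAC, with few shallow cells, have points only in the deeper bins.

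The comparison of SP3-null with wild-type asked whether loss of SP3 altered these transcripts in the endothelium. It was made on the UMIs summed over 6 classes (both AE, both VE, conflux AE and pre-HE), 2639 wild-type and 2401 SP3-null cells. The 2 libraries differed little. The nuclear members summed to 27057 CPM (wild-type) and 27658 CPM (SP3-null), a log2 ratio of 0.032 (95% interval 0.028 to 0.036), and the mitochondrial genes to 61934 and 57269 CPM, a log2 ratio of -0.11 (-0.12 to -0.11). A gene was called when its ratio passed 1.2-fold, provided that both sums together held 200 UMIs of it. Of 10146 genes tested, 4.04% were called higher and 8.82% lower in SP3-null. Of the 78 nuclear members tested, 1 was called higher, Cox6b2, and 0 lower. None of the 13 mitochondrial genes was called.

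Over the 6 classes together, most nuclear members were slightly above 0 on the log2 scale. Their median was 0.041, with 55 members above 0 and 23 below, where the median of all genes was -0.021. With the 6 classes weighted alike it was 0.010 (48 above and 30 below), after thinning to 5000 UMIs 0.024, and with TMM or DESeq2 factors 0.060 or 0.061. The counting intervals of 36 members lay above 0, those of 8 below 0, and 34 included it. By class, among members with at least 200 UMIs, 23 were above 0 and 49 below in pre-HE, and 40 and 35 in conflux AE. In HE and IAC, which lay outside the sum, 26 and 31 were above 0 and 43 and 46 below. In the AE and VE classes and in other endothelium more were above 0 than below. The matching shares of all genes are not given here, so these counts do not set the members apart. The medians of complexes I, IV and V were 0.043, 0.049 and 0.043, that of complex III was 0.0078, and that of complex II was -0.022 over 4 members. Within complex I the 7 core subunits, which carry the electron path, had a median of 0.046 and the 29 accessory subunits one of 0.042. Each median lay well inside the 1.2-fold limit of 0.263 on the log2 scale.

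**Figure D3:**
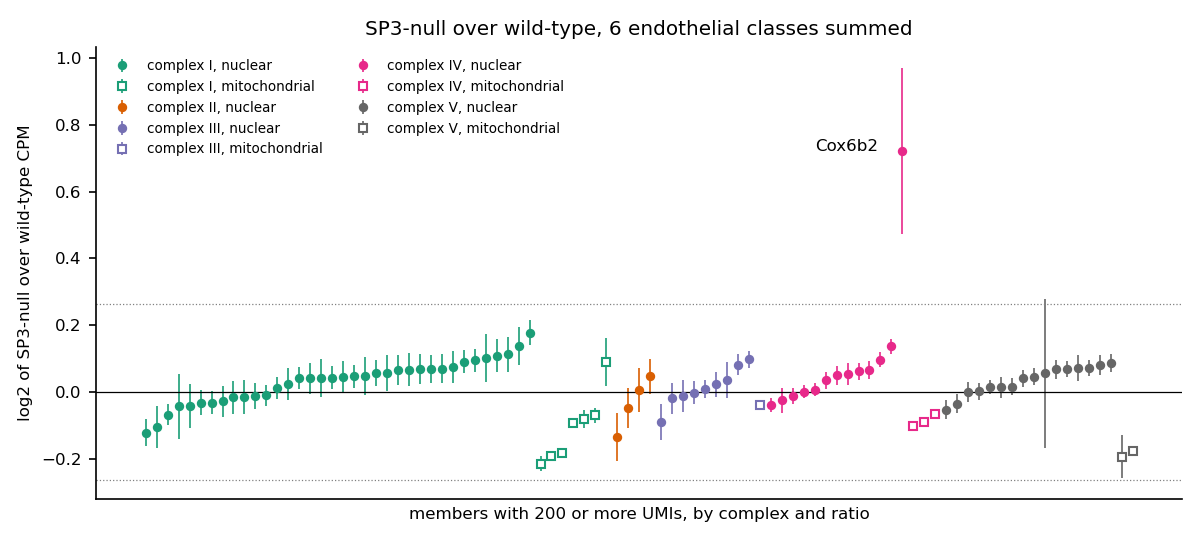
Log2 ratio of SP3-null over wild-type CPM (vertical axis) for each member with at least 200 UMIs (horizontal axis, ordered within complexes), with 95% counting intervals and dotted lines at 1.2-fold. Cox6b2 at 0.72 is the single member beyond a dotted line, and 12 of the 13 mitochondrial genes lie below 0.

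In complex I, the entry point for NADH, the member with most UMIs over all cells was Ndufab1, the mitochondrial acyl carrier protein, with 379 CPM (wild-type) and 362 CPM (SP3-null) in these sums. Its accessory subunit Ndufa7 had the highest ratio of the complex, with 260 CPM (wild-type) and 294 CPM (SP3-null) (log2 ratio 0.18, 95% interval 0.14 to 0.22), and was higher in SP3-null in each of the 9 classes. Ndufa12, another accessory subunit, had the lowest, with 258 and 237 CPM (-0.12, -0.16 to -0.08), and was lower in each of the 9 classes. In complex II, Sdhc, one of its membrane anchors, was at 79.3 and 72.2 CPM (-0.13, -0.21 to -0.06), whereas Sdhb, the iron-sulfur subunit and the most abundant of the 4, was at 140 and 145 CPM. In complex III the hinge protein Uqcrh was both the most abundant member and the one with the highest ratio, at 626 and 670 CPM (0.10, 0.07 to 0.12), and Uqcrc2, a core protein, was lowest at 135 and 127 CPM. The differences of these members exceeded counting error, except that of Sdhb, whose interval included 0, and all lay inside 1.2-fold. No replicate was available to set them against.

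In complex IV the most abundant member, Cox4i1, did not differ between the libraries beyond counting error, with 1067 CPM (wild-type) and 1071 CPM (SP3-null). Cox6c, next to Cox6b2 the highest of the complex, was at 723 and 795 CPM (log2 ratio 0.14), and Cox8a was the lowest at 946 and 920 CPM (-0.04). In complex V, Atp5g2, which encodes the proton-carrying ring subunit c, was the most abundant at 930 and 938 CPM. The alpha subunit of the catalytic head, Atp5a1, was lowest at 480 and 462 CPM (-0.05), and subunit g, Atp5l, was highest at 531 and 564 CPM (0.09). Atp5g3, which makes the same mature subunit c as Atp5g1 and Atp5g2, is the one member within 10 Mb of Sp3. It lies on chromosome 2, 0.952 Mb away, and was at 406 CPM (wild-type) and 410 CPM (SP3-null), with an interval that included 0.

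Of the 80 nuclear members, 6 were higher in SP3-null in every class where they had at least 10 UMIs (Uqcrh, Atp5k, Cox7c, Ndufa6, Ndufa7 and Cox6b2), and 3 were lower in every such class (Sdhc, Ndufa12 and Atp5a1). None of the 13 mitochondrial genes kept 1 direction throughout. The share of all genes that kept 1 direction is not given here, so these counts do not set the members apart. The classes of a library were sorted and prepared together and are not replicates. Usmg5, which encodes a small subunit of the ATP synthase that the name rule does not catch, was named after its values were seen. It was higher in SP3-null in all 9 classes, for example at 304 against 237 CPM in the IAC and at 303 against 253 CPM in Wnt-high AE.

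Cox6b2 encodes the isoform of complex IV subunit 6b best known from testis. Its UMIs were few, with 222 in the wild-type and 343 in the SP3-null sum, or 5.27 and 8.70 CPM, and the log2 ratio was 0.72 (0.47 to 0.97). Per class, with wild-type given first, its CPM was 9.83 and 10.7 in Wnt-high AE, 4.46 and 7.97 in Wnt-low AE, 2.82 and 8.76 in conflux AE, 1.95 and 6.73 in pre-HE, 16.9 and 21.2 in HE, 16.4 and 26.1 in IAC, 6.0 and 7.72 in Wnt-high VE, 3.73 and 8.57 in Wnt-low VE, and 5.04 and 7.65 in other endothelium. SP3-null was thus higher in all 9 classes, although the pre-HE values rest on 3 and 6 UMIs and the intervals of 5 of the other 8 classes lay above 0. A single wild-type Wnt-high AE cell held 16 of the 72 UMIs of its class. With the AE alone the log2 ratio was 0.44, and with the 6 classes weighted alike it was 0.99. Cox6b1, the isoform that made up nearly all subunit 6b transcripts, was at 588 CPM (wild-type) and 602 CPM (SP3-null).

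**Figure D4:**
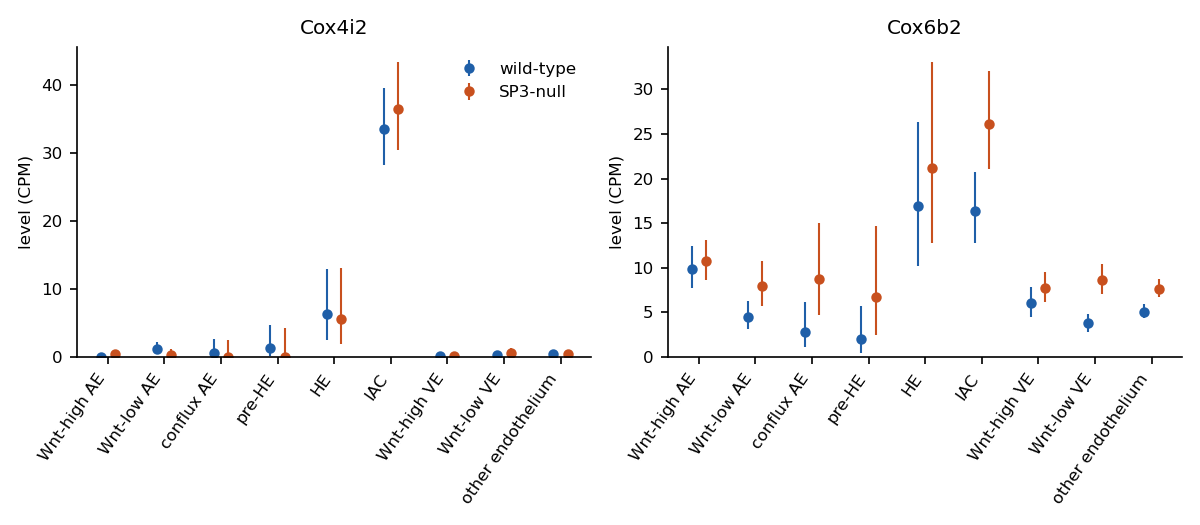
Level of Cox4i2 (left) and Cox6b2 (right) in CPM (vertical axes) by class (horizontal axes) in each library, with exact 95% Poisson intervals. Cox4i2 stands at 33.4 and 36.4 CPM in the IAC, at a much lower level in HE and near 0 in the remaining classes. Cox6b2 is detected in each class and is higher in SP3-null in each.

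SP3 and its relative SP1 bind the GC box, so the promoters of the members were read for it. RefSeq promoters on GRCm38.p6 were found for 67 of the 80 nuclear members, 72 promoters in all, each taken as the 250 bases upstream of the start. The letters GGGCGG on either strand occurred in 34.7% of the member promoters and in 32.7% of all 32851 promoters of this length. The 25 members with a GC box had a median genotype log2 ratio of 0.045 (16 above 0), and the 41 tested members without one had 0.042 (33 above 0). Other letters known from promoters of respiratory genes were more frequent among members than among all promoters, with GCGCATGC, read by NRF1, in 11.1% against 2.26% and CCGGAAG, read by the ETS factor GABP, in 16.7% against 6.91%. The core GATGGCG of YY1 occurred in 4.17% against 2.18% and TATAAA in 8.33% against 12.4%. The shares count promoters and not genes. Ndufa7 has overlapping promoters that each hold GATGGCG and TATAAA, so that it entered both shares more than once. None of these letter strings contains another, and a match is a description and not a bound site. The promoters of Cox6b2 and Cox6b1 are printed for the one member called between genotypes and its isoform, and those of Cox6a1 and Atp5g1 for the members of complexes IV and V that differed most between AE and IAC among well-counted genes, 5' to 3', with GC boxes in capitals.
Cox6b2 (chr7:4753095-4753344, minus strand): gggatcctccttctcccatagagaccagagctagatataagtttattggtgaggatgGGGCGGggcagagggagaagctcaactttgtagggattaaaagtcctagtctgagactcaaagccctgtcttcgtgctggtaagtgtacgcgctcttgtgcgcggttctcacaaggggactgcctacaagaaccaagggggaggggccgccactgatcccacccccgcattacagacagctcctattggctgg
Cox6b1 (chr7:30626115-30626364, minus strand): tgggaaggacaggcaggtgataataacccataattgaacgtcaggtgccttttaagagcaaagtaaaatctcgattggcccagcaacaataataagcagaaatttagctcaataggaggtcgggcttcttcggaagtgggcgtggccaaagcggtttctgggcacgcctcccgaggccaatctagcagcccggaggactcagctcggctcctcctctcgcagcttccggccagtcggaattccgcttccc
Cox6a1 (chr5:115348959-115349208, minus strand): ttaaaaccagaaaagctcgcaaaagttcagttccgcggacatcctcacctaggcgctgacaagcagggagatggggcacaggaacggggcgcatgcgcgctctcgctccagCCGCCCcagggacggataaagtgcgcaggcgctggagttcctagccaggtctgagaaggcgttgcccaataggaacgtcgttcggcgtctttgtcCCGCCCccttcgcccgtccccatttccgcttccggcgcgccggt
Atp5g1 (chr11:96075632-96075881, minus strand): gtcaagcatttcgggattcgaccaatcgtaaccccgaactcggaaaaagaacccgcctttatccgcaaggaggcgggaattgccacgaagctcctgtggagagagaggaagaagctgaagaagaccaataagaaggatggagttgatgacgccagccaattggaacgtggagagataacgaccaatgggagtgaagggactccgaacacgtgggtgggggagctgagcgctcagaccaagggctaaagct
Cox6b2 thus has 1 GC box and Cox6b1 has 0, Cox6a1 has 2 and Atp5g1 has 0 in this window.

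The mitochondrial genes were lower in SP3-null with 1 exception, at a median log2 ratio of -0.094. In complex I, mt-Nd4l was at -0.22, mt-Nd2 at -0.19, mt-Nd1 at -0.18, mt-Nd4 at -0.09, mt-Nd3 at -0.08 and mt-Nd5 at -0.07. The exception was mt-Nd6, the one protein-coding gene on the light strand of the mitochondrial genome, at 74.4 CPM (wild-type) and 79.2 CPM (SP3-null) (0.09, 0.02 to 0.16). Cytochrome b of complex III, mt-Cytb, was at -0.04. The 3 complex IV genes lay between -0.10 for mt-Co2 and -0.07 for mt-Co1. The ATP synthase genes mt-Atp8 and mt-Atp6 were at -0.19 and -0.18. The difference was not shared by all classes. The summed mitochondrial level was lower in SP3-null in 7 of the 9 classes, furthest in Wnt-high VE (log2 ratio -0.24) and HE (-0.23), and higher in conflux AE (0.08) and pre-HE (0.19). Beside this, median UMIs per cell were higher in the SP3-null library and the share of cells above 10% mitochondrial UMIs was lower, 23.5% against 27.5%. With cells of 12000 or more UMIs the median log2 ratio was -0.058, in AE alone -0.052, and with the 6 classes weighted alike -0.027. The 6 arterial markers of the same sums were lower in SP3-null as well, at 478 against 563 CPM (log2 ratio -0.24), with 3 of the 6 called lower, and their part in this result was not tested.

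The step from AE to conflux AE and pre-HE precedes the acquisition of hemogenic potential, and each library gave its own comparison. The nuclear members were on balance slightly lower in conflux AE and pre-HE and the mitochondrial genes higher. Nuclear members summed to 26475 CPM in AE and 24806 CPM in conflux AE with pre-HE in the wild-type library, and the SP3-null values were 27083 and 24506 CPM. Their median log2 ratios were -0.12 (16 members above 0 and 60 below) and -0.18 (7 above and 69 below), beside 0.0053 and 0.017 for all genes. Mitochondrial genes summed to 65833 and 76249 CPM in wild-type and to 63263 and 82975 CPM in SP3-null, with median log2 ratios of 0.22 and 0.38. None of the 76 nuclear and 13 mitochondrial members passed the 1.5-fold limit used for stages in either library, where 9.54% of all genes were called higher and 8.81% lower in wild-type and 10.4% and 8.45% in SP3-null.

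The 2 libraries gave the nuclear members like directions, with 57 of the 76 below 0 in both, 4 above 0 in both and 15 with opposite signs. All 5 complexes had medians below 0 in both libraries, from -0.08 for complex III in SP3-null to -0.20 for complex II in SP3-null, and in complex V 13 of 15 members were below 0 in wild-type and 15 of 15 in SP3-null. Scaling by TMM factors shifted this comparison by 0.09 in wild-type and by 0.13 in SP3-null on the log2 scale, after which 6 nuclear members were above 0 and 70 below in wild-type and 3 and 73 in SP3-null, with 10 and 11 of the 13 mitochondrial genes above 0. Among cells of 12000 or more UMIs the nuclear medians were nearer 0, at -0.087 in wild-type and -0.10 in SP3-null. There 22 members were above 0 and 54 below in wild-type, and 17 and 59 in SP3-null.

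Ndufa13 and Ndufa8 were the extremes of complex I in both libraries. Ndufa13, an accessory subunit of complex I also known as GRIM-19, was at 232 CPM in AE and 322 CPM in conflux AE with pre-HE in wild-type (log2 ratio 0.47) and at 234 and 309 CPM in SP3-null (0.40). Ndufa8, an accessory subunit on the intermembrane side, was at 277 and 201 CPM in wild-type (-0.46) and at 260 and 186 CPM in SP3-null (-0.48). Cyc1, the cytochrome c1 of complex III, was at -0.26 and -0.38. In complex II the lowest were Sdhb in wild-type (-0.29) and the flavoprotein Sdha in SP3-null (-0.20). In complex IV, Cox4i1 was at 0.20 and 0.14, and Cox7a2l, a relative of subunit 7a that takes part in joining complexes III and IV, was at 295 CPM in AE and 356 CPM in conflux AE with pre-HE in both libraries (0.27 in each). In complex V, Atp5g1 was the lowest at -0.33 and -0.41.

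Of the mitochondrial genes, mt-Atp8 was at 0.28 in wild-type and was the highest in SP3-null at 0.56, while mt-Nd4l, mt-Co3 and mt-Nd4 had wild-type log2 ratios of 0.35, 0.32 and 0.31 and SP3-null ratios of 0.48, 0.49 and 0.48. Those nearest 0 were mt-Nd6 at -0.08 and 0.04, mt-Nd1 at -0.05 and 0.13, and mt-Nd2 at 0.07 and 0.24. The others were mt-Nd5 (0.14 and 0.24), mt-Co2 (0.17 and 0.36), mt-Co1 (0.19 and 0.37), mt-Atp6 (0.22 and 0.42), mt-Nd3 (0.22 and 0.39) and mt-Cytb (0.24 and 0.38). The genes of the 1 mitochondrial genome thus differed among themselves by more than the median difference. Among cells of 12000 or more UMIs the mitochondrial medians were 0.17 and 0.29. Thinning to 5000 UMIs left out the shallower cells, in unequal shares of the classes. After it the medians were 0.018 in wild-type, with 7 of the 13 genes above 0 and 6 below, and 0.16 in SP3-null, with 11 above and 2 below. Nuclear-retained RNA (Malat1, Neat1 and Kcnq1ot1) moved in the same direction, from 6698 to 7523 CPM in the AE classes to 11525 to 14916 CPM in conflux AE and pre-HE. Genes of S phase and mitosis moved the other way, from 899 to 1183 and 1522 to 2136 CPM in the AE classes to 593 to 882 and 631 to 1417 CPM, and the part of these in the result was not tested. The 6 neural markers summed to 586 to 926 CPM in conflux AE and pre-HE, their highest, which rested on Stmn2 (log2 ratios over AE of 3.12 and 2.77), while Nes, the other one with enough UMIs, was lower (-0.64 and -0.63).

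The IAC lie at the end of the transition. Compared with AE, their 13 mitochondrial transcripts had lower CPM in both libraries, with mt-Nd3 in SP3-null inside counting error. The nuclear members together were nearly level, but single members differed in both directions. Their counting intervals lay below 0 for 30 of 76 in wild-type and 35 of 77 in SP3-null, and above 0 for 25 in each. The matching shares of all genes are not given here. Few nuclear members passed 1.5-fold. The 13 mitochondrial genes summed to 65833 CPM in AE and 45773 CPM in IAC in the wild-type library, and the SP3-null values were 63263 and 44185 CPM, with median log2 ratios of -0.47 in both. Among cells of 12000 or more UMIs these medians were -0.19 and -0.18, with 5 and 4 of the 13 genes above 0. The nuclear members summed to 26475 and 25762 CPM in wild-type and to 27083 and 25931 CPM in SP3-null, with medians of -0.06 and -0.08 beside -0.013 and -0.012 for all genes. With each cell weighted alike the mean of the nuclear medians was 0.031 in place of -0.071. At the 1.5-fold limit, 0 nuclear members were called higher and 4 lower of 76 in wild-type, and 1 higher and 4 lower of 77 in SP3-null, and 4 of the 13 mitochondrial genes were called lower in each (mt-Nd4l, mt-Co2 and mt-Co3 in both, mt-Atp8 in wild-type, mt-Atp6 in SP3-null). Among cells of 12000 or more UMIs none of these mitochondrial calls held, with ratios from -0.22 for mt-Atp6 to -0.41 for mt-Atp8. Of all genes, 16.8% were called higher and 24.5% lower in wild-type, and 17.6% and 25.6% in SP3-null.

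**Figure D5:**
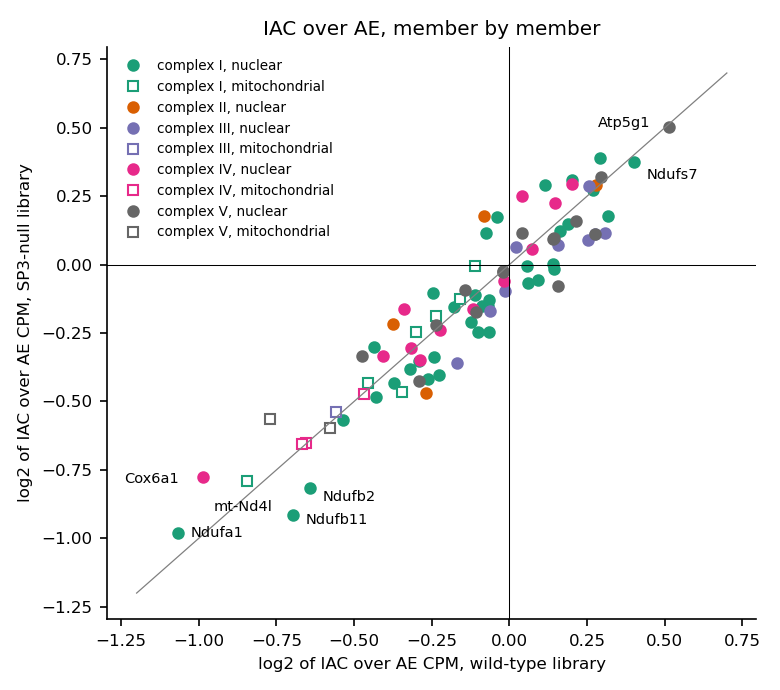
Log2 ratio of IAC over AE CPM for each member tested in both libraries, with wild-type on the horizontal and SP3-null on the vertical axis, filled circles for nuclear and open squares for mitochondrial genes, colored by complex, and the line of equal values. The members lie near the line, with Ndufa1, Cox6a1, Ndufb11 and Ndufb2 at the lower left and Atp5g1 at the upper right.

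The same 4 nuclear members were called lower in both libraries. Ndufa1, a small X-linked accessory subunit needed for assembly of complex I, was at 121 CPM in AE and 57.6 CPM in IAC in wild-type (log2 ratio -1.07, 95% interval -1.27 to -0.87), and at 137 and 69.4 CPM in SP3-null (-0.98, -1.18 to -0.79). HE, with 73.8 and 59.2 CPM, was on the side of the IAC, and the remaining classes lay between 100 and 145 CPM. Ndufb11, also X-linked (the sex of the pooled embryos was not given) and a membrane-arm subunit, was at 328 and 203 CPM in wild-type (-0.70) and at 346 and 183 CPM in SP3-null (-0.92), with HE at 200 and 224 CPM and every other class at 274 CPM or more. Ndufb2, another membrane-arm subunit, was at 178 and 114 CPM (-0.64) and at 193 and 109 CPM (-0.82). Its AE value was carried by Wnt-high AE, at 208 and 216 CPM, and with Wnt-low AE alone as the start the ratios were -0.37 and -0.49, short of the limit, whereas Ndufa1 and Ndufb11 passed it under all 10 alternatives in both libraries.

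Cox6a1, the widely expressed isoform of complex IV subunit 6a, was at 364 CPM in AE and 184 CPM in IAC in wild-type (log2 ratio -0.99) and at 374 and 218 CPM in SP3-null (-0.78). HE was at 297 and 282 CPM, between AE and IAC, so that with HE in place of IAC the ratios were -0.30 and -0.41, short of the limit. Its muscle isoform Cox6a2 had 0 UMIs in wild-type and 3 in SP3-null IAC. Macrophage markers, which summed to 254 and 322 CPM in the IAC and to at most 4.55 CPM outside IAC and HE, were all 8 detected there. In the 26 wild-type and 38 SP3-null IAC cells without a macrophage UMI, Ndufa1 was at 69.1 and 82.4 CPM, Ndufb11 at 202 and 180 CPM, Ndufb2 at 106 and 110 CPM and Cox6a1 at 182 and 229 CPM, all below their AE levels.

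The complexes differed in their balance. In complex III, 6 of 9 nuclear members were above 0 in both libraries, with medians of 0.16 and 0.07. Complex IV had medians of -0.17 and -0.16 and complex I of -0.08 and -0.14, with the 7 core subunits at -0.07 and 0.12. The highest of the core was Ndufs7, which holds the last iron-sulfur cluster before ubiquinone, at 0.40 and 0.37. In complex II the anchor Sdhd was highest at 0.28 and 0.29, and the lowest was Sdhc in wild-type at -0.37 and Sdhb in SP3-null at -0.47. The core protein Uqcrc1 was lowest in complex III at -0.17 and -0.36. Complex V had medians near 0, at 0.04 and -0.02. Its lowest members were Atp5o, the stalk subunit OSCP, at -0.48 in wild-type and Atp5h, subunit d, at -0.43 in SP3-null, and its highest was Atp5g1 in both.

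Atp5g1 was at 497 CPM in AE and 709 CPM in IAC in wild-type (log2 ratio 0.51, 95% interval 0.45 to 0.57) and at 499 and 707 CPM in SP3-null (0.50, 0.44 to 0.57) and thus stayed inside the 1.5-fold limit in both. It supplied 35.4% and 35.3% of the subunit c UMIs of Atp5g1, Atp5g2 and Atp5g3 in the IAC, 26.3% to 29.0% in the AE classes and 24.3% to 26.1% in conflux AE and pre-HE. The share therefore went down toward pre-HE and up again in the IAC. Since the 3 genes encode 1 mature protein, these shares concern the transcripts alone, and reads of near-identical processed pseudogenes could be split among them.

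Isoforms of complex IV also differed between classes. Cox4i2 is the isoform of subunit 4 known from lung and from induction by low oxygen, and Cox4i1 the widely expressed one. In the wild-type library Cox4i2 was at 33.4 CPM in IAC (exact Poisson 95% interval 28.1 to 39.4), 6.22 CPM in HE and at most 1.30 CPM in every other class, and in the SP3-null library at 36.4 CPM (30.4 to 43.4), 5.58 CPM and at most 0.594 CPM. The IAC held 141 and 127 of its UMIs against 8 and 4 in AE, log2 ratios of 5.94 (4.93 to 7.18) and 7.01 (5.62 to 8.91). Both sums fell short of 200 UMIs, so that the gene was outside the calls.

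By cell, 62 of 128 wild-type IAC cells had a Cox4i2 UMI, 48.4% (exact Clopper-Pearson 95% interval 39.5% to 57.4%), and 53 of 107 SP3-null IAC cells, 49.5% (39.7% to 59.4%). In Wnt-high AE 0 of 467 wild-type cells had one, which, taking 3 cells as the limit that a count of 0 allows, leaves a share of cells with a UMI of up to 0.642%, and in the 4 AE groups the share was at most 1.06%. After thinning to 5000 UMIs, with shallower cells left out, 12.7% and 15.5% of IAC cells had a UMI, against at most 0.508% in the AE classes. Cox4i2 made up 3.85% and 3.93% of all subunit 4 UMIs in IAC, 0.636% and 0.580% in HE, and at most 0.122% elsewhere. Cox4i1 remained the main isoform, at 834 and 891 CPM in IAC against 1105 and 1123 CPM in AE (log2 ratios -0.41 and -0.33). IAC cells without a macrophage UMI had 30.4 and 35.1 CPM of Cox4i2, and those with 5 or more macrophage UMIs had 15.0 and 22.4 CPM.

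The other isoform pairs moved less. Cox6b2 was at 16.4 and 26.1 CPM in the IAC, log2 ratios over AE of 1.2 (0.74 to 1.65) and 1.43 (1.03 to 1.82), of which the second was called and the first was short of 200 UMIs. Its share of subunit 6b UMIs was 3.27% and 5.19% in IAC, 3.10% and 3.97% in HE and 0.721% to 1.74% in the AE classes. Cox7a2l made up 45.4% and 48.1% of the UMIs of the subunit 7a family in pre-HE and 31.8% to 36.7% in the AE classes, whereas Cox7a1, the muscle isoform, never exceeded 1.78 CPM. Ndufa4l2, a relative of Ndufa4 induced by low oxygen that the name rule leaves out, had 62 UMIs in all cells, of which 20 lay in SP3-null Wnt-high AE, at 2.25 CPM, and 0 in wild-type Wnt-high AE.

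Among the mitochondrial genes mt-Nd4l was lowest in the IAC relative to AE, at log2 ratios of -0.84 and -0.79, followed by mt-Atp8 (-0.77 and -0.56), mt-Co3 (-0.67 and -0.65), mt-Co2 (-0.65 in both), mt-Atp6 (-0.58 and -0.60) and mt-Cytb (-0.56 and -0.54). The complex I genes mt-Nd3 (-0.11 and -0.01), mt-Nd1 (-0.16 and -0.13) and mt-Nd2 (-0.24 and -0.19) were nearest 0, with mt-Nd5, mt-Nd6, mt-Nd4 and mt-Co1 at -0.25 to -0.47. By complex the medians were -0.30 and -0.25 for complex I and -0.65 in both libraries for complex IV. Since mt-Atp8 overlaps mt-Atp6, and mt-Nd4l overlaps mt-Nd4, each pair on 1 transcript, how reads were split within a pair is uncertain. The size of the difference varied with how cells of unequal depth were treated. With cells thinned to 5000 UMIs and shallower cells left out the medians were -0.55 and -0.70, and with each cell weighted alike -0.91 and -0.78. Cells above 10% mitochondrial UMIs made up 4.69% and 3.74% of the IAC and 26.7% to 34.9% of the AE classes. Among cells of 20000 or more UMIs the median mitochondrial share was 4.38% in wild-type and 4.29% in SP3-null IAC, against 4.56% and 4.39% for Wnt-high AE and 4.27% and 4.29% for Wnt-low AE, so that at this depth the classes lay close together.

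Genes that build and supply the complexes were taken from lists rather than by name. In the IAC, 61 of 77 genes of mitochondrial ribosomal proteins were above their AE level in wild-type and 64 of 77 in SP3-null, with medians of 0.31 and 0.29, and 15 and 11 of them were called higher and 1 lower in each library, close to the 16.8% and 17.6% of all genes called higher. Mrpl12 was the highest, at 148 CPM in AE and 293 CPM in IAC in wild-type (log2 ratio 0.99) and at 142 and 268 CPM in SP3-null (0.91). Of the assembly factors, which insert cofactors and join modules, 7 of 41 were called higher and 1 lower in wild-type and 10 of 40 higher and 1 lower in SP3-null, with medians of 0.30 and 0.26, again beside 16.8% and 17.6% of all genes called higher. Ecsit, a complex I assembly factor, was highest in wild-type at 1.10 and Sco2, which delivers copper to complex IV, in SP3-null at 1.2, whereas Tmem126b and Ndufaf3, both complex I assembly factors, were lowest at -0.83 and -0.61.

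Of the 16 genes of the tricarboxylic acid cycle and its entry, 11 were above 0 in the IAC of both libraries, with medians of 0.30 and 0.28, Idh3a highest at 0.83 and 1.01 and Sucla2 lowest at -0.29 and -0.30. Of 15 genes that copy and transcribe mitochondrial DNA or regulate such genes, 4 were called higher and 1 lower in each library, which at this number of genes is not set apart from the 16.8% and 17.6% of all genes called higher. Tfam, which packages mitochondrial DNA and starts its transcription, was at 0.87 and 0.99, and the polymerase Polg at -0.81 and -0.75. Of the ADP/ATP carriers, Slc25a5 was at 0.55 and 0.62 and Slc25a4 at -0.39 and -0.57. S phase genes were at 1504 and 1590 CPM in the IAC, above the 899 to 1183 CPM of the AE classes, and their part in these list values was not tested.

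Between AE and conflux AE with pre-HE the list medians were -0.20 and -0.21 for mitochondrial ribosomal proteins, -0.23 and -0.22 for the tricarboxylic acid cycle, -0.03 and -0.12 for assembly factors and -0.017 and -0.0098 for mitochondrial DNA expression, and Slc25a5 was at -0.67 in both libraries. Between genotypes the medians were -0.017 for mitochondrial ribosomal proteins, -0.026 for assembly factors, -0.013 for the tricarboxylic acid cycle and -0.069 for mitochondrial DNA expression. In the last of these, Ppargc1b, a coactivator of mitochondrial biogenesis, was lowest at -0.88 (-1.29 to -0.48). Higd1a, a small protein of complex IV that the name rule leaves out, was at 181 CPM (wild-type) and 216 CPM (SP3-null) (0.26), just short of 1.2-fold.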

How the data were processed

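Sorted endothelial cells were profiled with the 10x Genomics 3' kit v3, 1 library per genotype, and the authors processed the reads with Cell Ranger, whose version is not given in the sources used here, against mm10 (GRCm38). The deposited matrix holds raw UMI counts per gene and cell, after the authors removed low-quality cells and erythroid contaminants, and the deposited cell table holds each cell's mitochondrial fraction, total UMIs and class label. The authors had assigned classes by a vote of the nearest cells of a published reference map, with ties settled at random, and split AE from VE by arterial and venous gene scores. The deposited labels place more cells in the AE, the start of each stage comparison, than the cell numbers listed by the study, and were used as they stand. Wnt-high and Wnt-low AE held 467 and 472 wild-type and 574 and 348 SP3-null cells. The 6 arterial markers summed to 601 to 632 CPM in these classes, 2567 to 2704 CPM in conflux AE and pre-HE and 159 to 206 CPM in VE. The 5 venous markers summed to 352 to 401 CPM in the AE classes and 511 to 589 CPM in VE. The matrix falls short of the deposited totals by 0 to 197 UMIs per cell, 0.145% of all UMIs, and the recomputed mitochondrial share matched the deposited one. 1 cell with a fetal liver stem cell label was left out of the classes.

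UMIs were summed per library and class and divided by the sum of all genes to give CPM, with exact 95% Poisson intervals. Ratios of sums carry exact conditional (Clopper-Pearson) intervals on the log2 scale, which cover counting error only. Genes with at least 200 UMIs over both sums were called past 1.2-fold for genotype and 1.5-fold for stages. No test was run, since each genotype had 1 library, and cells are not replicates. The depth was 79456081 UMIs in wild-type and 71154918 in SP3-null. Doublets were not called, and an alternative left out the 5% of cells with most UMIs. The ratios and intervals were checked on simulated Poisson counts. These hold no variation between cells or libraries, so the check covers the calculation alone. Python 3.11.15 with numpy 2.4.6, scipy 1.17.1 and pandas 2.3.3 was used, and R 4.3.3 with edgeR 4.0.16 and DESeq2 1.42.0 for scaling factors alone.

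The members and lists were chosen with earlier results of these data known. Named members were, in each complex, the most abundant and the one with the highest and lowest ratio in each comparison, all mitochondrial genes, all members with a paralog and any member within 10 Mb of Sp3, and from each further list the most abundant, highest or lowest. Outside this rule, Usmg5, Ndufs7 in SP3-null, and Tfam in wild-type, with Uqcrh, Atp5k, Cox7c and Ndufa6 in the count over classes, were named after their values were seen. Tag counts at 3' ends give 1 tag per molecule whatever the length of the transcript, and genes with near-identical pseudogenes are uncertain.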

Additional observations from a re-analysis of the deposited data

Results flagged for a closer look

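With 1 library per genotype, none of these differences between classes was tested. They were listed because SP3-null was higher than wild-type beyond counting error in 1 class and lower beyond it in another. The 13 mitochondrial genes were higher in SP3-null pre-HE (log2 ratio 0.19) and lower in SP3-null Wnt-high VE (-0.24), 0.426 apart. The mitochondrial genes of complex IV were 0.446 apart in the same classes, and those of complexes I, III and V were 0.397, 0.381 and 0.477 apart between pre-HE and HE. The summed nuclear members were 0.105 apart between Wnt-high VE (0.063) and pre-HE (-0.042), and the nuclear members of complex V were 0.164 apart in the same classes. Nuclear members of complex I were 0.0996 apart between Wnt-high AE and pre-HE, and those of complex III 0.123 apart between Wnt-high AE (0.070) and IAC (-0.053). Pre-HE held 136 wild-type and 92 SP3-null cells, and 8 of the 9 differences involve pre-HE. Its median depth was 9258 and 9163 UMIs per cell, that of Wnt-high VE 14476 and 19230, and that of HE 17656 and 21366. Cells above 10% mitochondrial UMIs made up 33.1% and 35.9% of pre-HE, 30.9% and 21.2% of Wnt-high VE and 15.3% and 7.5% of HE. The part of depth in these differences was not tested.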

How the results depend on the processing

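For the stages the values here are means of the medians of the 2 libraries. The alternative values of the 6 medians were set against the median half-width of the counting intervals of single members. That width is not the error of a median over many members, so a move inside it is not shown to be small. Of 78 such values, 51 moved by no more than this width, 26 moved further and 1 changed sign: the nuclear median of IAC over AE was -0.071, and 0.031 with each cell weighted alike. The mitochondrial genotype median of -0.094 was -0.074 with TMM and -0.073 with DESeq2 scaling, -0.047 with cells of at most 10% mitochondrial UMIs (a filter on the quantity compared, which narrows it by construction), -0.15 with cells weighted alike, -0.066 after thinning to 5000 UMIs, -0.027 with classes weighted alike, -0.052 in AE, -0.16 in VE, and -0.058 in cells of 12000 or more UMIs, an alternative chosen after seeing the data. The nuclear median of conflux AE and pre-HE over AE, -0.15, was -0.26 with TMM. By library, wild-type first, it was -0.16 and -0.21 with cells weighted alike and -0.099 and -0.13 with at most 10%. In the deeper cells it was -0.087 and -0.10. For conflux AE alone it was -0.062 and -0.12, and for pre-HE alone -0.18 and -0.29. The mitochondrial one, 0.30, was 0.19 with TMM and with DESeq2 factors (0.191 and 0.195), 0.24 with at most 10%, 0.25 without the 5% deepest cells, 0.18 with cells weighted alike, 0.090 after thinning, and 0.23 in the deeper cells. The mitochondrial IAC median, -0.47, was -0.551 with TMM, -0.547 with DESeq2, -0.50 with totals without mitochondrial UMIs, -0.17 with at most 10%, -0.85 with cells weighted alike, -0.63 after thinning, -0.378 with HE in place of IAC, -0.384 from Wnt-low AE alone, and -0.18 in the deeper cells. The cause was not tested beyond the depth values given above. Of 182 alternative values of the called members, 80 moved outside the member's own counting interval and 0 changed sign. No paired analysis was possible because each genotype had 1 library, so no library could be left out either.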
